A study of Mus musculus with 24 samples.

Results

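The cytosolic ribosomal protein genes were taken as every probe of the bead array whose gene symbol starts with Rpl or Rps followed by a digit, or is Rplp0, Rplp1, Rplp2 or Rpsa. Symbols starting with Rps6k, which name kinases, and symbols containing -ps, which name pseudogenes, were dropped. The rule found 84 of the 25697 probes, for 66 gene symbols, of which 40 were assigned to the large subunit and 26 to the small subunit by symbol alone. Of these, 60 symbols (36 large, 24 small) had a probe that passed the filter on dim signals and were tested among 11008 features. The 6 symbols with no such probe were Rpl17, Rpl3l, Rpl39l, Rplp2, Rps23 and Rps23rg1. Rps19bp1, which the rule takes in, names a protein that binds Rps19 and is no ribosomal protein, and it was kept in all counts.

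The ribosome is built from a large and a small subunit, each a core of ribosomal RNA coated by proteins that are made in near equal numbers. Messenger RNAs of ribosomal proteins start with a run of pyrimidines, the terminal oligopyrimidine tract, through which growth signalling by mTOR sets how strongly they are translated. In mice, loss of a single copy of some of these genes gives a short or kinked tail, a changed number of vertebrae or a dark skin, and Rpl38 mutants are known for changes of axial identity.

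The study compared the unsegmented caudal end, the tissue at the tail of the embryo from which the body axis grows, between Srf knockout embryos and controls at 3 stages. Knockout embryos were labelled Srf(-/-), and the study's design text describes them as homozygous for a conditional Srf allele (flex) together with T:cre. Controls were labelled Srf(+/-), although their sample titles call them wild type. All parents carried 1 conditional allele and 2 copies of T:cre by the breeding scheme in the labels, so Cre, driven by T (Brachyury) in the primitive streak and tail bud, was present in both genotypes. The strain label was C57Bl/6 throughout. The stages were E8.5, then E8.75, then E9.0, and each of the 6 groups held 4 arrays. The labels do not say whether replicates were separate embryos, pools or litters, so p-values cover only how far these arrays spread, and that spread may be technical.

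Srf mRNA, the check of the labels, was lower in knockouts by a log2 difference of -1.09 at E8.5 (limma, adjusted p 0.0168) and of -0.81 at E9.0 (adjusted p 0.00078). At E8.75 the difference was -1.0 and did not pass (adjusted p 0.248), with control replicate 4 inside the knockout range. Tail bud and presomitic markers were measured for 12 of 14 listed genes and averaged 9.16 to 9.42 on the log2 scale in every group. Of 8 listed genes of brain and heart, 6 were on the array, and Otx2, En2, Six3, Myl7 and Myh6 were detected on no array. The other, Nkx2-5, was detected on at least 1 array in both genotypes at E8.5 and in knockouts at E9.0. The arrays of E8.75 were brighter, with median intensities of 145 to 173 against 36.8 to 45.9 at the other stages, and the median SD within groups over all features was 0.26 there, against 0.18 at E8.5 and 0.16 at E9.0. For the ribosomal protein genes it was 0.19 there, against 0.12 and 0.081. Of the 60 genes tested, 56 were detected on all 24 arrays. Rpl14 and Rpl6 were detected on 4 arrays each, Rpsa on 20 and Rpl22l1 on 23.

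At E9.0 some ribosomal protein mRNAs of both subunits were higher in knockouts than in controls, by small amounts, and most did not pass the test. Where genotypes are compared, a gene that rose or fell was higher or lower in knockouts than in controls of that stage. The mean over the 60 genes was 12.59 in knockouts of E8.5 and 12.57 in those of E9.0. In controls it was 12.55 and 12.43. The knockout minus control difference passed the test for 15 of the 60 genes, all 15 higher (limma, adjusted p under 0.05), 9 of the large and 6 of the small subunit. With each array scaled to its median, 1 was higher and 3 were lower. Among all features 24.8% passed, 13.5% higher and 11.3% lower, so the share of ribosomal protein genes called, 25%, was that of the array as a whole, and their directions were all one way. The difference was above 0 for 50 of the 60 genes, against 50.8% of all features. The median log2 difference was 0.17 for the large subunit and 0.15 for the small subunit, against 0.0056 for all features.

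Averaged over the genes of a subunit, the arrays of the 2 genotypes did not overlap at E9.0. The large subunit mean was 12.35, 12.34, 12.32 and 12.34 in the 4 knockout arrays, against 12.12, 12.20, 12.21 and 12.20 in the 4 control arrays. The small subunit mean was 12.93, 12.95, 12.91 and 12.94 in knockouts, against 12.76, 12.84, 12.82 and 12.83 in controls. Every knockout array thus lay above every control array for either subunit, and control replicate 1 was the lowest of the 8.

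**Figure D1:**
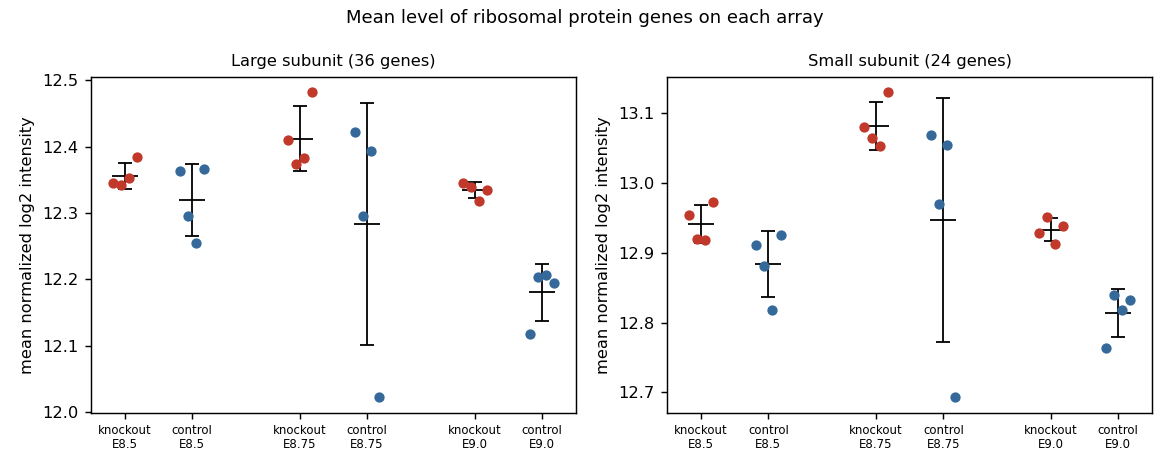
Mean normalized log2 intensity of the 36 large subunit genes (left) and the 24 small subunit genes (right) on each array, with the mean and SD of each group in black (n = 4). At E9.0 all 4 knockout arrays lay above all 4 control arrays, while at E8.75 control replicate 4 lay far below the other arrays; the vertical axes do not start at 0.

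Counts at E9.0 depended on the fit, on single arrays and on the scaling. The 15 calls became 2 without array weights and 10 with the E9.0 arrays fitted alone. They became 8, 9, 9 and 7 without control replicates 1, 2, 3 and 4, and 7 without knockout replicate 4. Scaling each array to its median, which moved the median of all features to -0.09, left 1 gene higher (Rpl22) and 3 lower (Rpl21, Rps19bp1 and Rps27l), with 39 of 60 above 0 and medians relative to all features of 0.17 and 0.16, while cyclic loess gave 25 higher and 1 lower. Other cell types differed between the same arrays: the summed signal of 12 measured primitive erythroid markers (of 14 listed) ranged from 10.6 to 15.5 on the log2 scale in knockouts and from 16.4 to 17.04 in controls, with none of the 12 undetected in either group. Yolk sac endoderm markers were alike at this stage (summed 8.33 to 8.58 in knockouts and 8.39 to 8.54 in controls), and Afp, Apoa4, Spp2, Rbp4 and Fgb were detected on no array of either genotype. Endothelial markers (7 measured of 8 listed) summed to between 9.91 and 10.88 in knockouts and between 10.73 and 11.15 in controls, none of the 7 undetected. Neural tube markers (3 measured of 7 listed) summed to between 9.65 and 10.43 in knockouts and between 8.88 and 9.57 in controls, without overlap, while Sox1, Pax6, Pax3 and Olig2 were detected on no array of either genotype. The part of these cells in the result was not tested, and in whole tissue, fewer cells of a type and less RNA per cell cannot be told apart.

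Among large subunit genes the difference was greatest for Rpl22, which encodes an RNA-binding protein on the outer face of the large subunit that mice can live without. Rpl22 (probe ILMN_2659229) measured 11.89, 12.05, 12.20 and 12.10 in the knockout arrays of E9.0, against 11.51, 11.61, 11.53 and 11.55 in the control arrays. All 4 knockout arrays lay above the highest control. The log2 difference was 0.51 (SE 0.085), a 1.43-fold higher level, with an adjusted p of 0.00013 in limma.

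Rpl13a, a large subunit protein that in human cells also leaves the ribosome to silence inflammatory mRNAs, had 11.66, 11.87, 11.57 and 11.56 in knockouts and 11.07, 11.18, 11.37 and 11.16 in controls. Its groups did not overlap, and it rose by 0.47 (SE 0.090, adjusted p 0.0005). Rpl36al, the paralog of the X-linked Rpl36a, had 13.54, 13.58, 13.43 and 13.50 in knockouts and 13.12, 13.24, 13.10 and 13.02 in controls, a rise of 0.39 (SE 0.098, adjusted p 0.0054). The lowest knockout array was again above the highest control.

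Rpl24, which reaches across to the small subunit and is mutated in the mouse strain Belly spot and tail, had 13.46, 13.48, 13.21 and 13.35 in knockouts and 12.996, 12.83, 13.01 and 13.18 in controls. The gap between the groups was narrow, 13.21 above 13.18, and the difference of 0.37 (SE 0.108) passed the test with an adjusted p of 0.0146. Rpl5, which carries the 5S RNA into the ribosome and, outside it, binds Mdm2, had 13.05, 13.22, 13.26 and 13.20 in knockouts and 12.85, 12.84, 12.81 and 12.94 in controls. It rose by 0.32 (SE 0.093, adjusted p 0.0141), and the groups did not overlap. Rpl31, which lies by the tunnel where the new protein leaves, had 14.30, 14.38, 14.18 and 14.19 in knockouts and 13.96, 13.93, 13.97 and 13.96 in controls, a rise of 0.31 (SE 0.085, adjusted p 0.0099) with tight controls (SD 0.020) and no overlap. The other large subunit genes that rose were Rpl34 by 0.31, Rpl3, next to the peptidyl transferase centre, by 0.25, and Rpl10, which joins last in large subunit assembly, by 0.23. Rpl34 alone of the 15 had overlapping groups, with 13.07 on knockout replicate 3 and 13.11 on control replicate 3.

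The 6 small subunit genes that rose did so by 0.20 to 0.31, and the 9 large subunit genes by 0.23 to 0.51. Rps10, at the beak of the small subunit, had 13.21, 13.35, 13.47 and 13.38 in knockouts and 13.05, 13.03, 13.02 and 13.05 in controls. It rose by 0.31 (SE 0.084, adjusted p 0.0081), and the lowest knockout array was above a tight set of controls (SD 0.013). Rps6, the substrate of S6 kinase, had 14.16, 14.24, 14.32 and 14.32 in knockouts and 14.01, 14.01, 14.03 and 13.94 in controls, a rise of 0.26 (SE 0.081, adjusted p 0.0197) with no overlap.

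Rps27, whose protein holds a zinc finger, had 13.48, 13.69, 13.51 and 13.63 in knockouts and 13.19, 13.23, 13.35 and 13.37 in controls, a rise of 0.29 (SE 0.104, adjusted p 0.0421). Rps19, the gene found mutated first and most often in human Diamond-Blackfan anaemia, had 14.55, 14.57, 14.42 and 14.50 in knockouts and 14.20, 14.38, 14.32 and 14.19 in controls, a rise of 0.24 (SE 0.085, adjusted p 0.0438). Neither gene's groups overlapped, and for Rps19 the lowest knockout array exceeded the highest control by little. Rps26, at the mRNA exit channel, rose by 0.24 and Rps14, which lies near it, by 0.20. These last 4 calls were near the threshold. Like those of Rpl34, Rpl3 and Rpl10, they were lost in 10 or 11 of 20 alternative settings, whereas Rpl22 passed in all 20.

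**Figure D2:**
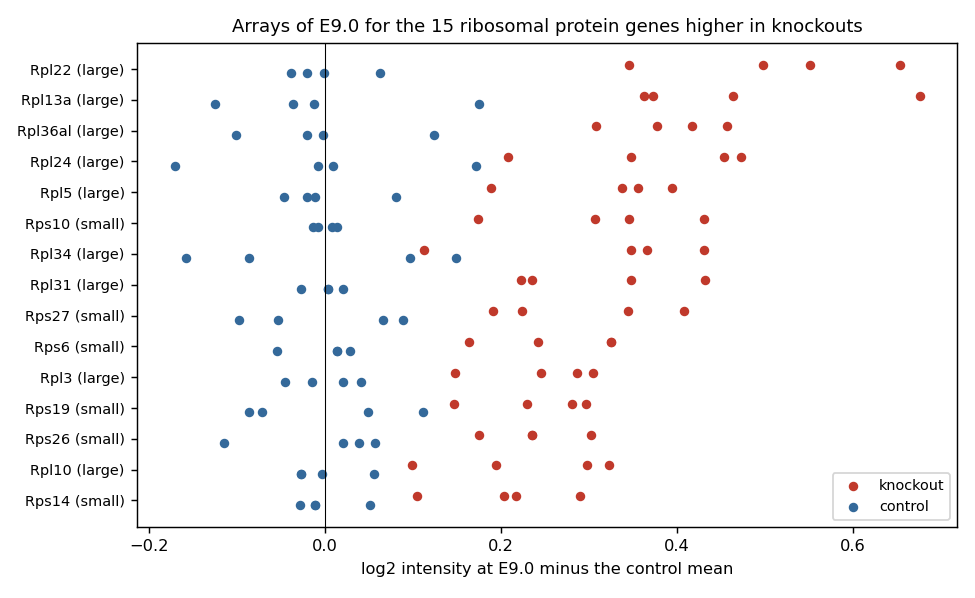
Log2 intensity on each array of E9.0, minus the mean of the 4 controls, for the 15 ribosomal protein genes that were higher in knockouts, ordered by their difference. Every knockout value lay above 0, and Rpl34 was the gene whose groups overlapped.

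The start sites of these genes are shown because a pyrimidine run there is the feature ribosomal protein mRNAs are known for, and because genes with and without a run were among those that rose. Promoters were taken from the RefSeq table of build GRCm38.p6, which held 57 of the 66 symbols. Each line gives 25 bases before and 25 from the annotated start, 5′ to 3′ on the gene's strand, with the longest run of C and T in capitals where it reached 8 bases. Rpl22 has 2 annotated starts, chr4:152324411-152324460 and chr4:152325701-152325750, both on the plus strand, and neither window holds such a run:
Rpl22, first start: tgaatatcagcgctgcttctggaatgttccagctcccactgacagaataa
Rpl22, other start: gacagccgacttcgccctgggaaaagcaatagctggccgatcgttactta
Nor does that of Rpl24, at chr16:55966250-55966299, plus strand:
Rpl24: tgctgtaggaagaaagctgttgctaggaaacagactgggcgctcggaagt
Runs of 9 to 14 bases stood in 5 other genes that rose, at chr7:45128721-45128770 (Rpl13a, minus), chr1:39367826-39367875 (Rpl31, plus), chr17:27635220-27635269 (Rps10, minus), chr4:86857343-86857392 (Rps6, minus) and chr3:90213624-90213673 (Rps27, minus):
Rpl13a: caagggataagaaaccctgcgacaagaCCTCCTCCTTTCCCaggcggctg
Rpl31: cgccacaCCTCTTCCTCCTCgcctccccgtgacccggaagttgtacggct
Rps10: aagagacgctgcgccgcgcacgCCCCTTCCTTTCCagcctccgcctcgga
Rps6: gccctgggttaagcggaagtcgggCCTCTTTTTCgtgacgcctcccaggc
Rps27: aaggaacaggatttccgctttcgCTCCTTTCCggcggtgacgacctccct
Runs of 10 to 20 bases stood as well in genes that did not pass the test, at chr11:114668555-114668604 (Rpl38, plus), chr7:109519170-109519219 (Rpl27a, plus) and chr10:23787185-23787234 (Rps12, minus):
Rpl38: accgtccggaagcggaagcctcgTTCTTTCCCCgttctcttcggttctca
Rpl27a: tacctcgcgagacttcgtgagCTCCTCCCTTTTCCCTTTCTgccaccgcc
Rps12: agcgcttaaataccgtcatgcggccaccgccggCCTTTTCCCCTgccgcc

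A run of at least 8 pyrimidines in this window was found for 28 of 57 ribosomal protein genes (49.1%), for 8 of the 13 that rose at E9.0 and have a promoter in the table, and for 22.3% of all genes in it. The motif CCGGAAG, an ETS core searched on both strands over 250 bases before and 50 after the start, was found for 22 of 57 (38.6%) and for 9.93% of all genes. The CArG box, the sequence that Srf binds, was found on either strand for 0 of 57, against 1.81% of all genes. These are matches of letters in one window around an annotated start, and the arrays did not measure where transcripts began.

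Genes that did not pass at E9.0 lay between -0.25 and 0.37. Rps27l, the paralog of Rps27 and a known p53 target, was the only member whose groups did not overlap in the other direction, with 13.59, 13.36, 13.53 and 13.48 in knockouts and 13.70, 13.71, 13.81 and 13.72 in controls. Its difference of -0.25 did not pass in limma (adjusted p 0.104). Groups did not overlap for 20 members with knockouts above (14% of all features) and for this 1 with knockouts below (11.4%). After Rps27l, the lowest differences were those of Rps19bp1 and Rpl21 at -0.18 and Rpsa at -0.07, none past the test. Rpl6 was detected on 0 of 4 knockout arrays and 1 of 4 control arrays of E9.0 and gets no difference. At the upper end Rpl29 had 13.24, 12.79, 13.37 and 13.28 in knockouts against 12.86, 13.01, 13.03 and 12.29 in controls, a difference of 0.37 with an SE of 0.202 (adjusted p 0.187) and overlapping groups.

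Of 9 genes whose mouse mutants are known for tail, axial or pigment traits, 3 rose at E9.0 (Rpl24, Rps19 and Rpl10) and 6 did not pass, in a median difference of 0.085. Of all 60 members 25% rose, and of all features 13.5% rose and 11.3% fell. Rpl38, the gene of Tail short, had 14.83, 14.89, 14.57 and 14.83 in knockouts and 14.52, 14.78, 14.79 and 14.74 in controls. The groups overlapped through most of their range, and the difference was 0.07 with a 95% interval from -0.11 to 0.25. Of 8 measured genes of human Diamond-Blackfan anaemia (13 listed), 5 rose (Rpl31, Rpl5, Rps10, Rps19 and Rps26), where 25% of all members and 13.5% of all features rose. Rpl35a, Rps7 and Rps24 did not pass (0.23, 0.08 and 0.03). Of the acidic stalk, where elongation factors dock, Rplp0 differed by 0.16 and Rplp1 by -0.0081, neither past the test. Fau, which makes a small subunit protein as a fusion and falls outside the symbol rule, rose by 0.45 (adjusted p 0.0037).

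Of the 4 X-linked genes, Rpl10 rose, with 14.36, 14.16, 14.38 and 14.26 in knockouts against 14.04, 14.12, 14.04 and 14.06 in controls, with the lowest knockout array just above the highest control. Rpl36a, Rpl39 and Rps4x did not pass (0.20, 0.19 and 0.09). Xist exceeded the Y-linked Kdm5d on 1, 4 and 4 of 4 knockout arrays and on 2, 1 and 3 of 4 control arrays, earliest stage first. The counts thus differed between genotypes at every stage, most at E8.75. As replicates may be pools, they need not give the sex of an embryo, and the part of sex was not tested.

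The size of the difference at E9.0 varied with the brightness of the probe. For 22 members with a mean log2 intensity of 14 or more the median difference was 0.085, for 16 between 13 and 14 it was 0.21, for 5 between 12 and 13 it was 0.23, for 9 between 10 and 12 it was 0.068, and for 8 under 10 it was -0.04. In the same ranges the other features, 32, 86, 222, 1349 and 9259 in number, had medians of 0.034, 0.026, 0.0095, -0.0036 and 0.0050. Members were thus a large part of the top range, and quantile normalization gives every array the same distribution. The part of that step in the differences of the top range was not tested. The brightest probes had intensities up to 23120 to 25199 at E9.0 and 55756 to 59585 at E8.75, and how far the signal still followed the amount of mRNA there was not tested.

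Of the members, 13 had more than 1 probe past the filter, and some pairs disagreed. The second probe of Rps3, which encodes a protein at the mRNA entry channel, rose by 0.80 at E9.0, against 0.21 for the brighter probe that was used and did not pass. For Rps19 the dimmer probe gave -0.40 against 0.24, and for Rps9 -0.17 against 0.20. For Rpl23 a second probe passed (0.26, adjusted p 0.0195) and the one used did not (0.18). The 2 probes of Rpl31 both lay above 0, at 0.31 and 0.23. Ribosomal protein genes have many processed pseudogenes, and which copies each probe binds was not tested.

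At E8.5 no ribosomal protein gene passed the test in limma, where 0.0454% of all features did, and 1 of 60 had an unadjusted p under 0.05. Groups did not overlap for 1 member, Rpl23, with knockouts above (0.945% of all features) and for 0 with knockouts below (1.08%). The difference was above 0 for 41 of 60 genes, with medians of 0.03 for the large and 0.05 for the small subunit, and both medians turned to -0.06 and -0.04 when arrays were scaled to their median (all features -0.13). The 5 highest differences were Rpl29 (0.32), Rps19bp1 (0.30), Rpl23 (0.20), Rpl34 (0.19) and Rps13 (0.19), and the 5 lowest Rpl22 (-0.16), Rpl21 (-0.13), Rps7 (-0.12), Rpl22l1 (-0.12) and Rps27l (-0.11). Rpl29, a heparin-binding large subunit protein, had 12.86, 12.11, 12.25 and 13.18 in knockouts and 12.05, 12.15, 12.09 and 12.82 in controls. In either genotype 1 or 2 arrays stood well above the others, and the groups overlapped.

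At E8.75 no ribosomal protein gene passed in limma either, where 0.127% of all features did (0.0818% higher and 0.0454% lower), and 3 of 60 had an unadjusted p under 0.05. Groups did not overlap for 2 members with knockouts above (2.03% of all features) and for 0 with knockouts below (1.98%). The difference was above 0 for 48 of 60 genes, with medians of 0.13 for the large and 0.15 for the small subunit. These medians rested on control replicate 4, whose 60-gene mean of 12.29 was the lowest of all 24 arrays, and they were 0.033 and 0.036 without it. The Srf level of that array, 8.10, lay inside the knockout range of 7.64 to 8.51, and whether its label is right was not tested. Rps19 had 14.89, 14.62, 14.79 and 14.89 in knockouts and 14.60, 14.60, 14.60 and 14.06 in controls, 0.33 apart (SE 0.133, adjusted p 0.692). The groups did not overlap, yet the 3 agreeing controls lay just under the lowest knockout. The highest differences were Rpl22l1 (0.52), Rpl7a (0.44), Rpl35a (0.40), Rps3a1 (0.38) and Rpl29 (0.37), and the lowest Rpl41 (-0.21), Rpl7l1 (-0.18), Rps15a (-0.17), Rpl3 (-0.15) and Rpl21 (-0.14). Yolk sac endoderm markers summed to between 11.2 and 13.8 in knockouts and between 9.22 and 10.7 in controls at this stage, and their part in these differences was not tested.

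**Figure D3:**
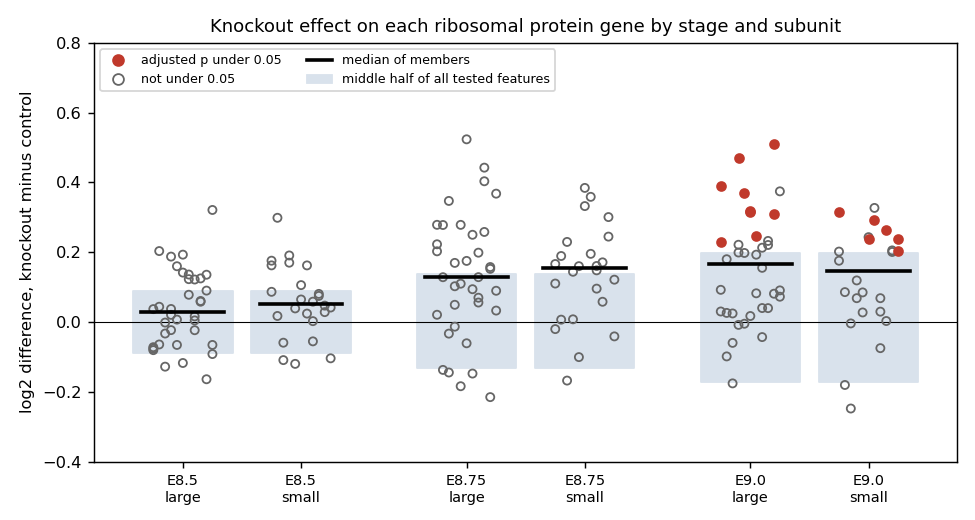
Log2 difference, knockout minus control, of each ribosomal protein gene at each stage, large and small subunit apart, with the median of the members as a black bar and the middle 50% of all tested features shaded. Filled points passed the test, and all 15 of them are at E9.0.

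Over the 3 stages together, 30 of the 60 genes (50%) were above 0 at every stage and 3 were below 0 at every stage, where 18.7% of all features were above 0 at every stage. This count follows in part from the 41, 48 and 50 of 60 genes above 0 at the single stages, against 49.6%, 49.1% and 50.8% of all features. The medians of E8.5 turned below 0 with median scaling, and those of E8.75 rested on control replicate 4. The effect averaged over stages was above 0 for 52 of 60 genes. It passed the test for 3, all higher (7.29% of all features passed, 4.24% higher and 3.05% lower): Rpl13a at 0.24 (SE 0.065, adjusted p 0.0298), Rps19 at 0.23 (SE 0.062, adjusted p 0.0288) and Rps10 at 0.20 (SE 0.061, adjusted p 0.0470). Larger averages that did not pass had larger SEs: Rpl29 (0.35, SE 0.147), Rpl7a (0.26, SE 0.105) and Rps15 (0.24, SE 0.098). Rpl35a, at 0.23 (SE 0.086), did not pass either. The lowest averages were Rpl21 (-0.15), Rpl7l1 (-0.08), Rps15a (-0.08), Rps27l (-0.04) and Rpl41 (-0.01). The count of 3 depended on single arrays. It became 10 without control replicate 1 of E8.75, 1 without control replicate 1 of E8.5, control replicate 3 of E8.75 or knockout replicates 2 or 4 of E8.75, and 0 without knockout replicates 1 or 3 of E8.75.

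For Rpl22 alone the knockout effect differed between stages past the threshold. At E8.5 it had 10.94, 11.25, 11.21 and 11.01 in knockouts and 11.44, 11.23, 11.13 and 11.27 in controls. At E8.75 it had 10.998, 11.13, 11.02 and 11.04 in knockouts and 11.04, 11.01, 10.78 and 10.73 in controls. Both stages had overlapping groups, with differences of -0.16 and 0.16, whereas those of E9.0, given above, did not overlap and differed by 0.51. The interaction of genotype and stage had an adjusted p of 0.0143 (limma F test), and 1.88% of all features passed it. The effect at E9.0 exceeded that at E8.5 by 0.67 (SE 0.129, adjusted p 0.0056), where 2.64% of all features passed, 1.77% higher and 0.872% lower. The interaction p was 0.264 with median scaling and 0.0513 without array weights, both over the threshold.

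After Rpl22 the smallest interaction p-values were those of Rpl13a, Rps26, Rpl10, Rpl3, Rpl36al, Rps27l, Rps7, Rpl5 and Rpl24, with adjusted p from 0.273 to 0.454. The effects of Rps26 at the 3 stages were -0.10, 0.12 and 0.24, and those of Rpl24 0.0070, 0.28 and 0.37. Rpl13a instead had 0.19, 0.05 and 0.47. None of these 9 was shown to differ between stages.

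Between E8.5 and E9.0 the controls themselves changed. Of the 60 genes, 16 passed, 1 higher and 15 lower at E9.0 (34.6% of all features passed, 15.8% higher and 18.8% lower, and groups did not overlap for 15.7% and 19% of them), and these share the control arrays of E9.0 with the knockout comparison. Yolk sac endoderm markers summed to between 8.39 and 8.54 in controls of E9.0 and between 12.35 and 14.05 in those of E8.5, and 6 of the 12 on the array were undetected at E9.0 and 1 at E8.5. Primitive erythroid markers summed to between 16.42 and 17.04 at E9.0 and between 9.88 and 15.99 at E8.5, with Gata1 undetected at E8.5. The part of these cells in the stage change was not tested. By subunit, 11 of 36 large and 4 of 24 small subunit genes fell. These counts use the brightest probe, and dimmer probes of some genes differed. The dimmer probe gave -0.55 against 0.07 for Rps24 and -0.47 against -0.0093 for Rps9. It gave -0.75 against -0.20 for Rpl38 and -0.92 against -0.36 for Rps3. For Rpl21 and Rps19 it lay higher than the probe used (0.23 against 0.05, and 0.10 against -0.02). Rpl22l1, the paralog whose mRNA Rpl22 protein is known to restrain in mice, had 5.01, 5.44, 5.43 and 5.30 in controls of E9.0 and 6.37, 6.08, 6.03 and 6.48 in controls of E8.5. The stages did not overlap, and it fell by 0.95 (SE 0.223, adjusted p 0.0020). Rps3a1, of the small subunit platform, had 9.21, 9.68, 9.48 and 9.51 at E9.0 and 10.45, 10.03, 9.80 and 10.37 at E8.5, a fall of 0.69 (SE 0.148, adjusted p 0.0008) with no overlap.

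Rpl10 had 14.04, 14.12, 14.04 and 14.06 in controls of E9.0 and 14.72, 14.59, 14.48 and 14.62 in controls of E8.5, and fell by 0.54 (SE 0.085, adjusted p 3.6e-05). Rps15a, a small subunit protein, had 7.24, 7.47, 7.70 and 8.05 at E9.0 and 7.84, 8.38, 8.41 and 7.97 at E8.5. It fell by 0.54 (SE 0.184, adjusted p 0.0260), and the stages overlapped. Rpl24 fell by 0.52, with the 4 control arrays of E9.0 given above all under the 13.60, 13.71, 13.44 and 13.35 of E8.5. The other falls were in Rpl36al, Rpl37a, Rpl5, Rpl4, Rps3, Rplp0, Rpl27, Rpl28 and Rps7, by 0.31 to 0.49, and in Rpl14, which was detected on no array of E9.0 and gets no fold. The 1 gene that rose in controls was Rpl22, by 0.28 (SE 0.091, adjusted p 0.0186), and with median scaling its difference was -0.0089. Rpl29 had a larger difference (0.52) that did not pass (adjusted p 0.0657), and after Rpl22 came, none past the test, Rps19bp1 (0.27), Rpl19 (0.27) and Rps13 (0.20).

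In knockouts 9 genes passed over the same interval, 3 higher and 6 lower (34.7% of all features passed, 16.5% higher and 18.2% lower, and groups did not overlap for 14.3% and 15.3%). Yolk sac endoderm markers summed to between 8.33 and 8.58 in knockouts of E9.0 (5 of 12 undetected) and between 12.04 and 14.76 in those of E8.5 (1 undetected). Primitive erythroid markers summed to between 10.61 and 15.52 at E9.0 and between 8.21 and 12.67 at E8.5, and the part of either was not tested. Rpl22 was 0.96 higher at E9.0 (SE 0.091, adjusted p 4.2e-08), with the 4 arrays of E9.0 all above 11.88 and those of E8.5 all under 11.26. Rpl29 and Rps26 were higher by 0.57 and 0.26. Rpl22l1 had 5.52, 4.87, 5.52 and 5.33 at E9.0 and 5.98, 6.51, 6.48 and 5.52 at E8.5 and fell by 0.81 (adjusted p 0.0065), and Rps3a1, Rps15a, Rpl4 and Rpl10 fell by 0.51, 0.48, 0.34 and 0.23. Rpl14, again undetected at E9.0, was the remaining one. Rpl22l1 did not differ detectably between genotypes at E9.0 (0.017, 95% interval -0.41 to 0.45), when it was near the limit of detection. The count of 9 was 4 without array weights, 5 with the 2 groups fitted alone, 5 without knockout replicate 3 of E8.5 and 4 without knockout replicate 4 of E9.0.

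**Figure D4:**
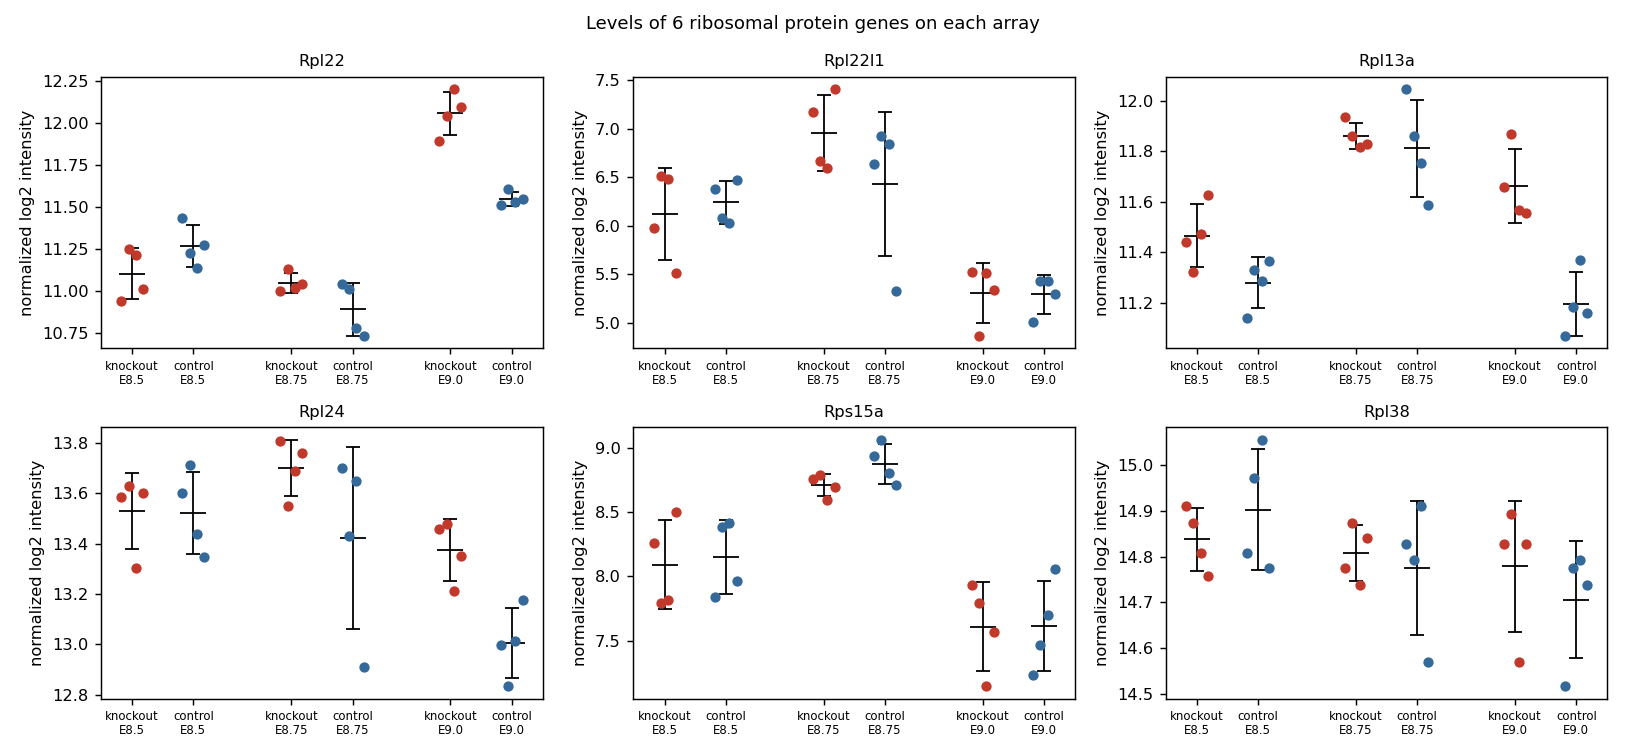
Normalized log2 intensity of 6 ribosomal protein genes on every array, knockout (red) and control (blue) at each stage, with group mean and SD in black (n = 4); the vertical axes differ and do not start at 0. Rpl22 was highest in knockouts of E9.0, Rpl22l1 and Rps15a were lowest at E9.0 in both genotypes, and Rpl38 overlapped between genotypes at every stage.

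Stage E8.75 was measured on the brighter arrays only, so stage and brightness cannot be told apart in changes that involve it. In controls 9 genes were higher and 10 lower at E8.75 than at E8.5 (31.4% of all features passed, 17.3% higher and 14.1% lower, and groups did not overlap for 14.9% and 12%), led by Rps19bp1 (0.88), Rps15a (0.72), Rps4x (0.67), Rps25 (0.54) and Rpl13a (0.53) and by Rps3a1 (-0.82), Rps3 (-0.70), Rpl7a (-0.64), Rpl10 (-0.57) and Rps15 (-0.52). At E9.0 against E8.75, 4 were higher and 13 lower (38.4% of all features passed, 16% higher and 22.4% lower, and groups did not overlap for 13.3% and 19.5%), led by Rpl22 (0.66), Rpl7a (0.50), Rps15 (0.45) and Rps3 (0.34), with Rpl35a at 0.37 not past the test, and by Rps15a (-1.26), Rpl22l1 (-1.14), Rpl13a (-0.62), Rps19bp1 (-0.60) and Rps4x (-0.50). Rps15a, Rpl13a, Rps19bp1 and Rps4x thus stood high at E8.75 relative to both neighbouring stages. Rpl12 (0.40, then -0.39) and Rpl23 (0.49, then -0.43) passed both comparisons in the same way. Rps4x, the X-linked protein of the small subunit, measured 14.78, 14.87, 14.96 and 14.60 in controls of E8.75, above the 14.36, 14.42, 14.24 and 14.20 of E9.0 and the 14.21, 14.16, 14.07 and 14.10 of E8.5. Its probe reached 59585, the highest intensity on any array of E8.75, and how far it followed the mRNA there was not tested.

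Genes that act with the ribosomal proteins did not share 1 direction at E9.0, where 24.8% of all features passed, 13.5% higher and 11.3% lower. Of 15 measured translation factors and other genes with a pyrimidine tract (16 listed), the initiation factor subunits Eif3h (0.30) and Eif3f (0.28) rose and the elongation factor Eef1d (-0.22) fell, in a median of 0.13. Of 46 measured genes of ribosome biogenesis and RNA polymerase I (58 listed), 2 rose, Polr1c by 0.65 and Nop10 by 0.36, and 9 fell, in a median of -0.10. Their share called was thus near that of all features, but the difference was above 0 for 12 of the 46, against 50.8% of all features. The falls included the processing factors Rrp12 (-0.60), Nop2 (-0.50) and Nop58 (-0.47), nucleolin Ncl (-0.46), the export adaptor Ltv1 (-0.45) and Myc (-0.44), the transcription factor that drives these genes. Of 71 measured mitochondrial ribosomal proteins, which form another ribosome, 7 rose and 11 fell, a share near that of all features, in a median of -0.05, with Mrpl2 at 0.83 and Mrps23 at -0.59.

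Of 16 measured genes of the mTOR pathway and tract-binding proteins (19 listed), 2 rose and 5 fell at E9.0 (13.5% and 11.3% of all features). Ddit4, an inhibitor of mTOR induced by stress, rose by 2.31 (SE 0.247, adjusted p 5.6e-07), and Eif4ebp1, a repressor of cap-dependent translation, by 0.69. Its relative Eif4ebp2 fell by 1.05, Tia1, which binds pyrimidine-rich mRNAs, by 0.45, Rheb by 0.35, Larp4 by 0.32 and Mtor by 0.27. Of 12 measured genes of the p53 response, Trp53 itself among the 15 listed, Bbc3 rose by 1.15 and Plk2 by 0.41. None fell, in a median of -0.10, against the same shares of all features. At E8.5 and E8.75 no gene of any of these lists passed the test.

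Members varied together little from array to array. After group means were removed, the median correlation between pairs of ribosomal protein genes was 0.19 over 24 arrays. Within stages of 8 arrays each it was 0.36 at E8.75 but 0.073 at E8.5 and 0.068 at E9.0, and for mitochondrial ribosomal proteins it was 0.30 over 24 arrays. The pairs share arrays and their normalization, and the value of E8.75 includes control replicate 4.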

How the data were processed

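Total RNA of 24 samples was hybridised to Illumina bead arrays, 1 array each, per the labels. The deposited non-normalized table, per the file headers, gives a linear bead intensity and a detection p-value per probe on every array, with no background or between-array step stated. The deposited value table holds intensity that shares 1 distribution over arrays, and it served as an alternative. GenomeStudio is named in the submitters' processing notes, with a version not given in the sources used here.

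Intensities were corrected by normexp with an offset of 16, then quantile normalized and log2 transformed by the neqc function (limma 3.58.1, R 4.3.3), so no log2 value is the authors' own deposited value. Probes with a detection p-value under 0.05 on at least 4 arrays were kept (14927 probes), and the brightest probe on average stood for each symbol, which gave 11008 features. One model of 6 group means over 24 arrays was fitted with lmFit and eBayes, with 1 array weight per stage (1.13, 0.603 and 1.47 from E8.5 to E9.0), and p-values were adjusted over all features by Benjamini-Hochberg. The weights were chosen from an earlier account of these data. Data of this many genes were simulated afterwards, drawn once per stage, with genes independent and 200 of them changed at 1 stage. In the real data 2725 features (24.8%) passed at E9.0, so the simulated shares of false calls cannot be carried over to them. An unweighted fit of the simulated data gave 38.5% false calls at E8.75, against 12.7% with weights. It gave fewer than the weighted fit at E8.5 (13.6% against 15.7%) and at E9.0 (2.9% against 8.65%). False calls were 3.12% at E9.0 with the compared groups fitted alone. In the real data that fit called 10 ribosomal protein genes at E9.0, of which 9 were among the 15.

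Named genes were the called members, at most 10 each way per genotype comparison, the 5 largest each way where fewer than 5 were called, the 10 with the smallest interaction p, the 5 largest each way per stage change in controls, and listed subsets. Further called members, genes of the pathway lists and probe pairs were chosen after their values were seen. The members, lists and fit were chosen with earlier results of these data known. Symbols of all 66 members were found in the RefSeq gene table, and promoter sequences are RefSeq's for GRCm38.p6. Replicate numbers did not pair samples: over 12 pairs the correlation of deviations was -0.26 to 0.40, and over 0.1 for 2. No arrays were identical (highest correlation 0.996). Depth on arrays is limited by their number. Figures were drawn with matplotlib 3.10.9.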

Additional observations from a re-analysis of the deposited data

Results flagged for a closer look

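In groups of 4 arrays, 120 groups were checked for an array far from the other 3 (18 members and the subunit means), and 5 had one by Dixon's test, when chance gives about 1 in 20. The large subunit mean of control replicate 1 at E9.0 was 12.12, with the other 3 controls between 12.20 and 12.21. Rpl24 measured 13.30 on knockout replicate 3 of E8.5, with the others from 13.59 to 13.63. On control replicate 4 of E8.75, Rpl31 measured 13.61 against 14.03 to 14.07 on the others, and Rps19 measured 14.06 against 14.60 on each of the others. Rpl29 measured 12.82 on control replicate 4 of E8.5, with the others from 12.05 to 12.15. The knockout effect on Rpl22 differed between the stages, with an interaction adjusted p of 0.0143 in limma.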

How the results depend on the processing

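Array number (4 a group) and probe brightness limit these results. Of 941 alternative values for 44 results, 737 were labelled the same, 136 weaker, 66 moved and 2 reversed. For single genes, the same meant the same direction and side of the threshold. For counts it meant a similar count, and for subunit medians a shift smaller than the SD within groups. Only single genes could be labelled reversed, and subunit medians that changed sign are among those given below. The slide as a block was not run because the files used here give no slide. Reversed were Rps19 at E9.0 with every probe tested (-0.080, the median over its 2 probes) and Rpl22 between stages in controls with median scaling (-0.0089). Replicate numbers shared across genotypes gave, as a replicate block, 7 calls at E9.0, 0 for the average effect, 5 for the stage change in knockouts and 0 for the interaction; 3 samples correlated best with their own number. At E9.0 calls were 2 without array weights, 4 with median scaling and 26 with cyclic loess, 22 without the arrays of E8.75, and 7 to 15 leaving out 1 array. The average effect had 7 calls with an offset of 50, 8 without background correction, 0 with median scaling, 8 in the authors' value table, 1 with every probe tested, and 0 to 10 leaving out 1 array. The stage change in knockouts had 4 calls without weights, 19 with cyclic loess, 5 with its groups alone, and 4 to 9 leaving out 1 array; that in controls 12 to 17. The interaction had 0 calls without weights or with median scaling and 1 whichever array was left out, and no member was called at E8.5 or E8.75 under any setting. Large subunit medians were -0.059, 0.30, 0.077, -0.36 and -0.19 with median scaling (E8.5, E8.75, E9.0, stage change in controls, in knockouts), and with cyclic loess 0.11 at E8.5, 0.25 at E9.0, -0.0051 in controls and 0.12 in knockouts. Small subunit medians were -0.044, 0.29, 0.063, -0.16 and -0.11 with median scaling, and 0.16 at E8.5, 0.23 at E9.0, 0.15 in controls and 0.21 in knockouts with cyclic loess. At E9.0 they were 0.22 (large) without the arrays of E8.75, 0.091 (large) and 0.10 (small) without a filter, 0.18 (small) with a strict filter and 0.10 (small) with every probe; in knockouts between stages -0.031 (large) and 0.0045 (small) without a filter and -0.084 (large) and -0.039 (small) with every probe. Leaving out 1 array gave large subunit medians from 0.011 to 0.052 at E8.5, from 0.033 to 0.17 at the next stage, from 0.13 to 0.19 at E9.0, 0.064 to 0.13 on average, -0.14 to -0.087 in controls and -0.077 to -0.025 in knockouts, and small subunit medians of 0.024 to 0.074, 0.036 to 0.18, 0.13 to 0.17, 0.073 to 0.11, -0.051 to -0.012 and 0.010 to 0.047. The cause was not tested.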
